A study of Mus musculus with 56 samples.

Results

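Interferon-stimulated genes were followed through the nucleus accumbens and prefrontal cortex of inbred mice. The genes named were Ifit1, Ifit3, Isg15, Irf7, Ifi27, Usp18, Bst2, Ifitm3 and Oasl2, and every probe set annotated to 1 of these 9 symbols alone was taken. That gave 9 probe sets of 8 genes out of 44951 probe sets and 18182 named genes on the array: 2 for Ifi27, and 1 for each of Ifit1, Ifit3, Irf7, Usp18, Bst2, Ifitm3 and Oasl2. The probe set carrying Isg15 is also annotated to the pseudogene Gm9706, so it is described beside the 9 and not counted among them.

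Expression was measured on 56 arrays of male mice, for which the labels name no treatment, 8 to 10 weeks old, 27 of nucleus accumbens (the ventral striatum) and 29 of prefrontal cortex. Each array held RNA pooled from 3 males of 1 strain, and the regions were cut from adjacent 0.5 mm slices of the same brains. Both regions were profiled in WSB/EiJ, SWR/J, SM/J, SJL/J, RIIIS/J, PL/J, P/J, NZW/LacJ, NON/LtJ, NOD/LtJ, MA/MyJ, KK/HlJ, I/LnJ, FVB/NJ, DBA/2J, CE/J, CBA/J, C58/J, C57BR/cdJ, C57BL/6J, C3H/HeJ, BUB/BnJ, BTBR T+ tf/J, BALB/cByJ, AKR/J, A/J and 129S1/SvImJ. NZO/HILtJ and MRL/MpJ were profiled in cortex only. A strain and the pool that stood for it cannot be told apart, because each strain had 1 array per region.

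Type I interferons are antiviral cytokines that signal through the receptor subunits IFNAR1 and IFNAR2 and the kinases JAK1 and TYK2 to a transcription factor complex named ISGF3, which holds STAT2 and IRF9. ISGF3 binds a sequence called the interferon-stimulated response element in the promoters of its target genes, which are kept low in healthy brain and are induced strongly in microglia, endothelium and other cells on infection. Some targets, among them members of the IFITM family of membrane proteins that hinder virus entry, also have a basal level in cells of vessels and of the coverings of the brain.

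The promoters of Ifitm3 and Ifit3, which reached measurable levels in some arrays, and of Ifit1, which did not, are shown because each holds letters of the response element. The windows run from 250 bases before to 50 bases after the start of each gene in RefSeq's table for GRCm38.p6, and capitals mark each match on either strand to the letters GAAA, any 2 bases, GAAA. The Ifit3 window is chr19:34583279-34583578 on the plus strand, with matches at bases -156 to -147 and -122 to -113 from the start. The Ifit1 window is chr19:34640639-34640938 on the plus strand, with matches at bases -104 to -95 and -85 to -76 from the start. The Ifitm3 window is chr7:141010695-141010994 on the minus strand, with matches at bases 2 to 11 and 19 to 28 counted from the start.
Ifit3: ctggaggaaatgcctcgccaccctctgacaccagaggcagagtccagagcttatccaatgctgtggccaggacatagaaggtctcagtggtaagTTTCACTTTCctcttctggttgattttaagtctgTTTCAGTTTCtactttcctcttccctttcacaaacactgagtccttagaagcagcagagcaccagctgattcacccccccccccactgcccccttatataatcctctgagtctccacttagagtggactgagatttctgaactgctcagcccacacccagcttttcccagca
Ifit1: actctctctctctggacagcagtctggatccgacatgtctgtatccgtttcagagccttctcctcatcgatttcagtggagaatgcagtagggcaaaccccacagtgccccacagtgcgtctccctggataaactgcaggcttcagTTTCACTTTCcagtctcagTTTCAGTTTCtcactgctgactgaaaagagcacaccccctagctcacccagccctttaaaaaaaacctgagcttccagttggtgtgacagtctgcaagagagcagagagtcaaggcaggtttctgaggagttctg
Ifitm3: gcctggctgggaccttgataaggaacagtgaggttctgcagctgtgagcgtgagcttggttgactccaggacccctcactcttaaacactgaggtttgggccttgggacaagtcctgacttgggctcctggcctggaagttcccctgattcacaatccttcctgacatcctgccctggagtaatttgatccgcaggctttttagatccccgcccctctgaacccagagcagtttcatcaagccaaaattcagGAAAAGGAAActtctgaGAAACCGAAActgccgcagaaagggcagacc
The same bases, TTTCACTTTC and TTTCAGTTTC, were matched in Ifit3 and in Ifit1, which encode related RNA-binding antiviral proteins. Isg15 had 3 overlapping matches (GAAAAGGAAA, GAAACCGAAA and GAAACAGAAA) and Bst2 had 2 overlapping matches, whereas the windows of Irf7 and Oasl2 held none. Thus 5 of the 7 named genes with a window held the motif, against 1131 of all 32851 windows (3.44%) and 25 of 52 windows of other interferon-stimulated genes (48.1%). Usp18 and Ifi27 had no window in the table. A match describes the letters only and is not evidence of binding.

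Levels are given as log2 intensity, the logarithm of the deposited array value. Levels of different probe sets were not compared, since probes differ in brightness. A value of log2 5 was used as the level below which a probe set is called dim. Differences between dim values are given without a fold and are not read as differences in RNA.

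Of the 9 probe sets, 5 lay below log2 5 on every array of either region (55.6%), those of Irf7, Usp18, Bst2, Ifit1 and Oasl2. Over the whole array, 26153 of 44951 probe sets (58.2%) did so. Irf7, the transcription factor that amplifies the interferon response, lay between 1.96 and 2.02 in accumbens (median 1.99) and between 1.92 and 2.44 in cortex (median 1.96). The value of 2.44 belonged to NOD/LtJ, and the next cortex array, of SJL/J, was at 2.00. Thus 1 cortex array stood above all others of either region, while still far below log2 5.

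Usp18, the protease that removes ISG15 from proteins and dampens receptor signalling, lay between 2.13 and 2.22 in accumbens (median 2.15) and between 2.40 and 2.56 in cortex (median 2.43). Ifit1 lay between 1.93 and 1.98 in accumbens (median 1.96) and between 2.04 and 2.28 in cortex, where DBA/2J was highest and SJL/J next at 2.16. For Usp18 and Ifit1 every cortex array was above every accumbens array, but the widest spread within a region was 0.24 log2 units.

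Oasl2, a member of the oligoadenylate synthetase-like family, lay between 2.47 and 2.75 in accumbens (median 2.56; highest in CE/J) and between 2.70 and 2.99 in cortex (median 2.76; highest in BUB/BnJ). Bst2, also called tetherin, which holds budding virus at the cell surface, lay between 2.97 and 3.35 in accumbens (median 3.12; highest in NON/LtJ) and between 3.07 and 3.68 in cortex (median 3.32; highest in NZW/LacJ). The regions overlapped for Oasl2 and Bst2. The shared probe set of Isg15, the ubiquitin-like modifier of the interferon response, and Gm9706 was dim throughout as well, at 3.57 to 3.77 in accumbens (median 3.67) and 3.79 to 4.32 in cortex (median 3.93; highest in SJL/J).

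**Figure D1:**
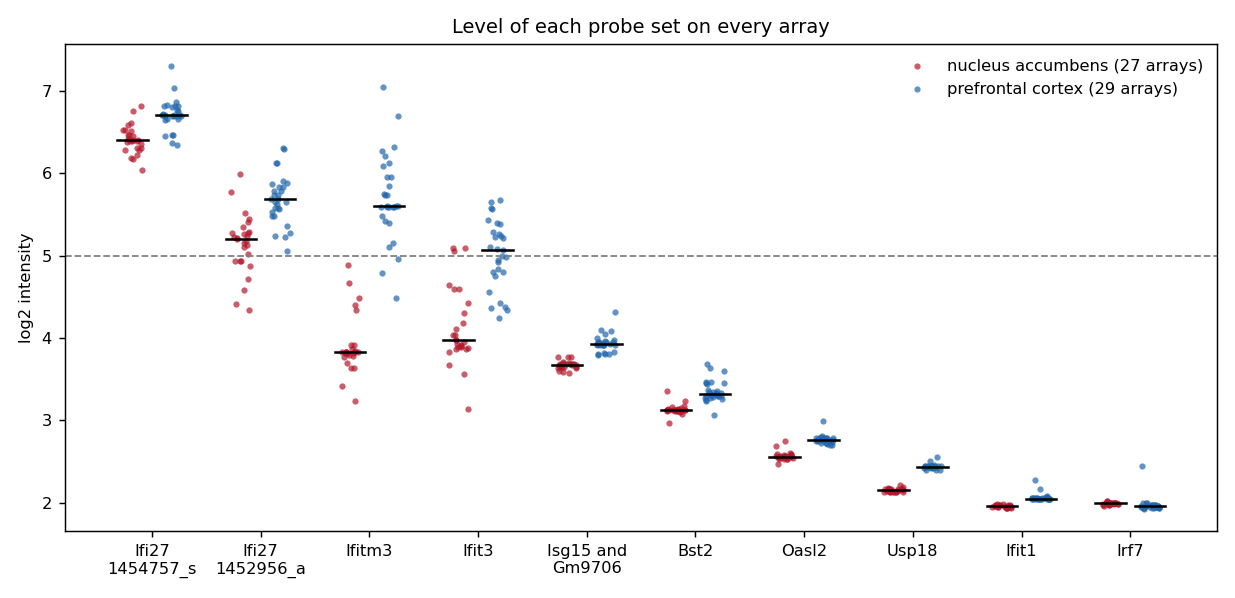
Log2 intensity (vertical axis) of each probe set on each of 27 accumbens arrays (red) and 29 cortex arrays (blue), with a bar at the median and a dashed line at log2 5. Irf7, Usp18, Bst2, Ifit1, Oasl2 and the probe set shared by Isg15 and Gm9706 lie below the line on every array, and the 2 Ifi27 probe sets have their medians above it in both regions.

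The other 4 probe sets, of Ifitm3, Ifit3 and Ifi27, rose above log2 5 on at least some arrays. Ifitm3, whose protein blocks the fusion of enveloped viruses with endosomes, lay between 3.24 (PL/J) and 4.89 (BUB/BnJ) in accumbens, with a median of 3.83. In cortex it lay between 4.48 (I/LnJ) and 7.05 (MRL/MpJ), with a median of 5.60. It was above log2 5 on 0 of 27 accumbens arrays and on 26 of 29 cortex arrays, so the accumbens values are dim throughout. Of the accumbens arrays, 11 lay within 0.02 of the median, and of the cortex arrays 8, where a typical tested probe set had 11.1% and 13.8% of its arrays that close.

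Ifit3, an RNA-binding protein of the same complex as IFIT1, lay between 3.14 (A/J) and 5.09 (I/LnJ) in accumbens, with a median of 3.98. In cortex it lay between 4.24 (RIIIS/J) and 5.68 (C57BR/cdJ), with a median of 5.07. It was above log2 5 on 3 of 27 accumbens arrays, those of I/LnJ, P/J and CE/J, and on 15 of 29 cortex arrays. Ifit3 therefore straddled the level used to call a probe set dim, and the regions overlapped widely. Whether its probes also bind the near-identical gene Ifit3b was not tested.

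Ifi27, whose product is a small hydrophobic protein strongly induced by interferon in human cells, was the gene with the most arrays above log2 5. On the _a_at probe set, whose probes match transcripts of 1 gene, it lay between 4.34 (SJL/J) and 5.99 (BALB/cByJ) in accumbens, with a median of 5.20 and 19 of 27 arrays above log2 5, and between 5.05 (NON/LtJ) and 6.31 (I/LnJ) in cortex, with a median of 5.69 and all 29 arrays above. On the _s_at probe set, a type whose probes can match more than 1 transcript, it lay between 6.04 (SJL/J) and 6.82 (BALB/cByJ) in accumbens (median 6.40) and between 6.34 (C3H/HeJ) and 7.30 (CE/J) in cortex (median 6.71). The lowest and the highest accumbens array were of the same strains on either probe set. Across arrays the 2 probe sets had a Pearson r of 0.72 in accumbens (n = 27) and 0.58 in cortex (n = 29), a description of arrays that share normalization and tissue makeup.

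The first question was which genes separate accumbens from cortex within the 27 paired strains. Region was tested with limma, with strain as a block, over 16056 probe sets, those brighter than log2 5 on 13 or more of the 54 arrays of paired strains. At a Benjamini-Hochberg adjusted p under 0.05, 51.8% of probe sets were higher and 31.5% lower in accumbens, 83.3% in all. The 4 probe sets of Ifitm3, Ifit3 and Ifi27 that were tested were lower in accumbens. A call is thus the usual outcome here and their number carries no weight. Ifitm3 passed the filter through its cortex arrays alone and Ifit3 mostly through them, so these probe sets had to differ.

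Ifitm3 averaged 3.91 ± 0.36 in accumbens and 5.65 ± 0.49 in cortex (log2 intensity, mean ± SD, n = 27), a difference of -1.74 (SE 0.10, 95% interval -1.95 to -1.53, limma adjusted p = 9.01e-16). In 24 of 27 strains the accumbens value was dim and the cortex value above log2 5, and in I/LnJ, CBA/J and WSB/EiJ both were dim, so no size is read from single strains. Because the accumbens mean lay below log2 5, the fold is given against that level, and Ifitm3 was at least 1.57-fold lower in accumbens. Only 2 cortex arrays of paired strains, those of I/LnJ and CBA/J, lay below the highest accumbens array.

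Ifit3 averaged 4.12 ± 0.47 in accumbens and 5.04 ± 0.42 in cortex (n = 27), a difference of -0.92 (SE 0.09, 95% interval -1.10 to -0.73, limma adjusted p = 1.33e-10). In 12 of 27 strains both regions lay at or below log2 5, in 12 only cortex was above it, and in I/LnJ, CE/J and P/J both were above it, with cortex higher. Against log2 5 the bound was 1.03-fold, since the cortex mean itself barely passed that level.

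Ifi27 was lower in accumbens on both probe sets. The _a_at probe set averaged 5.14 ± 0.36 in accumbens and 5.67 ± 0.31 in cortex (n = 27), a difference of -0.53 (SE 0.07, limma adjusted p = 6.3e-08), which is 1.45-fold lower. The _s_at probe set averaged 6.41 ± 0.17 in accumbens and 6.71 ± 0.19 in cortex, a difference of -0.30 (SE 0.04, limma adjusted p = 3.5e-07), which is 1.23-fold lower. The direction was not shared by all strains. On the _a_at probe set, 23 of 27 strains were lower in accumbens, and BALB/cByJ, BUB/BnJ, NON/LtJ and MA/MyJ were higher, by at most 0.30 in NON/LtJ. On the _s_at probe set, 24 of 27 were lower, and BALB/cByJ, NOD/LtJ and WSB/EiJ were higher, by at most 0.04 in WSB/EiJ.

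**Figure D2:**
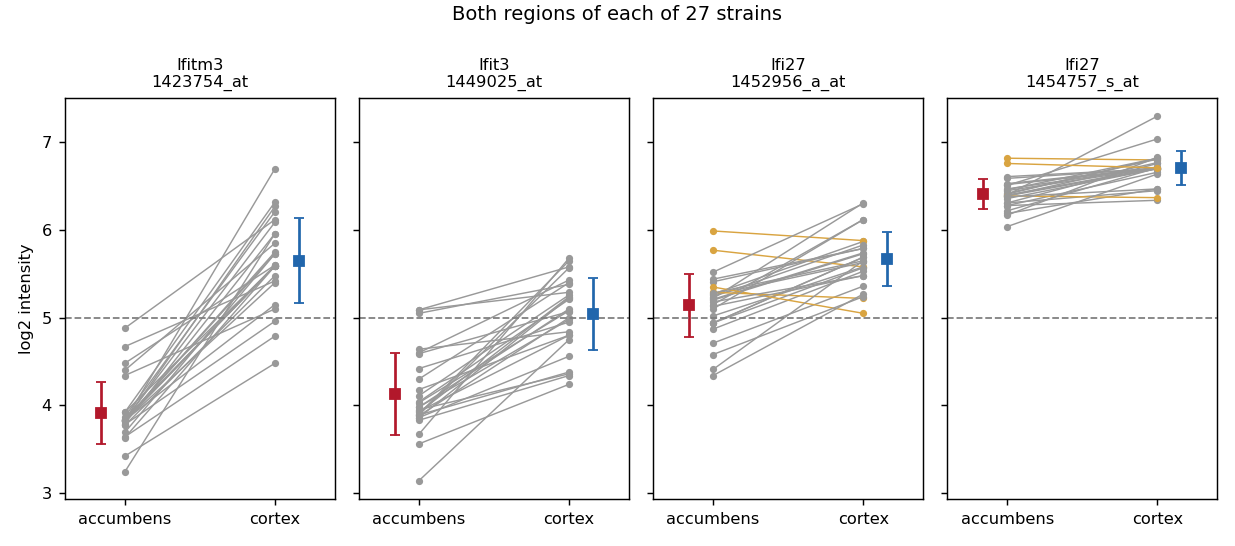
Log2 intensity of the 4 tested probe sets (vertical axis) in accumbens (left) and cortex (right) of 27 strains, with a line joining the regions of a strain, orange where accumbens was higher, squares and bars for the mean and SD, and a dashed line at log2 5. The Ifitm3 accumbens points all lie below the dashed line, both ends of 12 Ifit3 lines lie at or below it, and 4 and 3 lines of the Ifi27 probe sets go the other way.

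Several of these strains had arrays whose neuronal markers were unusual for their region. Summed intensity of spiny neuron genes, the projection neurons of the striatum, ran from 3562 to 27073 in accumbens. In cortex it ran from 592 to 1004 except for MA/MyJ at 15559. Cortical excitatory neuron genes summed to 160 to 560 in accumbens and to 2423 to 5473 in cortex. Their highest accumbens sums were those of NOD/LtJ at 560, BUB/BnJ at 472, SJL/J at 454 and P/J at 417. In NOD/LtJ and BUB/BnJ Ifi27 was higher in accumbens on 1 probe set each, and in SJL/J and P/J it was lower on both. Across accumbens arrays the r of Ifi27 with this sum was 0.005 on the _a_at and 0.031 on the _s_at probe set (n = 27). The lowest accumbens sums of spiny neuron genes were those of BALB/cByJ at 3562 and NON/LtJ at 9437. In both strains Ifi27 was higher in accumbens on the _a_at probe set, but on the _s_at probe set NON/LtJ was lower (6.38 against 6.47). CE/J at 12388 and WSB/EiJ at 14452 had the next lowest sums. In these, Ifi27 on the _a_at probe set was lower in accumbens (5.15 against 6.12 and 5.18 against 5.48). Across the accumbens arrays the r of Ifi27 with the spiny neuron sum was -0.46 on the _a_at probe set and -0.53 on the _s_at probe set (n = 27). Without the 5 strains whose arrays stood apart in spiny neuron genes (MA/MyJ, BALB/cByJ, CE/J, NON/LtJ and WSB/EiJ) the difference of the _a_at probe set was -0.62 and that of the _s_at probe set -0.31. The part of tissue makeup in the Ifi27 differences was not tested. In tissue samples like these, fewer cells of a type and less RNA per cell cannot be told apart.

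The difference between regions also includes whatever separated their arrays technically, which cannot be told apart from region, since the sources used here do not say whether they were normalized in 1 run. The 1st percentile of the intensities lay between 1.76 and 1.80 in accumbens and between 1.72 and 1.77 in cortex (log2), and the median tested probe set was 0.14 log2 units higher in accumbens, or 0.02 after quantile normalization across all arrays. Ifitm3 differed by -1.83 after quantile normalization and by -1.88 with each array centred, against -1.74 as deposited. Ifit3 differed by -1.02 and -1.05, against -0.92. The part of technical separation in these differences was not tested. The split over all probe sets moved to 6839 higher and 6335 lower after quantile normalization and to 6659 higher and 6521 lower after centring, against 8320 and 5060 as deposited. With no filter on dim probe sets, Usp18 differed by -0.29, Bst2 by -0.23, Oasl2 by -0.20, Ifit1 by -0.11 and Irf7 by 0.01 (limma adjusted p of Irf7 0.522). With no filter 41.6% of all probe sets were lower in accumbens. The other 4 of these 5 passed the threshold, but so did 76.8% of the 26200 probe sets that were dim on all paired arrays, and no fold is given.

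Across cortex arrays, meningeal and mural genes moved with Ifitm3, and endothelial genes did so less closely. The same held in the differences between regions, which contain the same cortex values. Across accumbens arrays the r values were low, at most 0.34. The 8 genes of meningeal and fibroblast cells, of which Lum and Col1a1 were never above log2 5, had summed intensities of 79.3 to 201.1 in accumbens (median 105) and 182 to 1810 in cortex (median 298), lower in accumbens in 27 of 27 strains. The 7 mural cell genes, of pericytes and vascular muscle, summed to 759 to 1175 in accumbens and 1007 to 3062 in cortex, lower in accumbens in 26 of 27 strains, with Kcnj8 never above log2 5. The 9 endothelial genes measured summed to 1308 to 2065 in accumbens and 1394 to 2198 in cortex, lower in accumbens in 16 of 27 strains, with Pecam1 never above log2 5. Single probe sets did not all go 1 way. Of 7 tested mural probe sets 5 were lower in accumbens, 1 higher and 1 not called. Of 13 endothelial ones 8 were lower, 2 higher and 3 not called. Over all probe sets 31.5% were lower and 51.8% higher.

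The strain with the highest Ifitm3 level, MRL/MpJ in cortex, also had the highest sum of all 3 lists. The next highest meningeal sums in cortex were those of BTBR T+ tf/J at 1361 and C57BR/cdJ at 1337, whose Ifitm3 levels of 6.27 and 6.32 came next after MRL/MpJ and CE/J. At the other end, I/LnJ had the lowest Ifitm3 level in cortex and a meningeal sum of 185, among the lowest. CE/J, next to MRL/MpJ for Ifitm3 at 6.70, ranked lower in these sums, as the plot of Ifitm3 against the marker sums shows.

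Over the 29 cortex arrays Ifitm3 and the log2 meningeal sum had a Pearson r of 0.78 and a Spearman rho of 0.86, and r was 0.69 without BTBR T+ tf/J and MRL/MpJ, the arrays farthest from the median sum. With the mural sum r was 0.76 (rho 0.79), or 0.66 without the same pair, and with the endothelial sum it was 0.56 (rho 0.54), or 0.39 without BALB/cByJ and MRL/MpJ. Over the 27 accumbens arrays r was 0.34 with the meningeal, 0.21 with the mural and 0.16 with the endothelial sum. The strains' accumbens minus cortex differences of Ifitm3 and of the log2 sums had an r of 0.79 for the meningeal and 0.79 for the mural list (n = 27). These differences hold the same cortex values, and all Ifitm3 values in accumbens were dim. Their r is thus not separate from the r in cortex. All these points share their normalization and the dissection of each slice. Ifit3 had an r of 0.36 with the meningeal sum in cortex and Ifi27 an r of 0.01 on the _a_at probe set and 0.14 on the _s_at probe set. The astrocyte sum was also lower in accumbens, in 25 of 27 strains, and its r with Ifitm3 in cortex was -0.16. For the choroid plexus sum the r in cortex was 0.30 (rho 0.59), or 0.17 without MRL/MpJ and SM/J. The part of vessel and meningeal tissue in the Ifitm3 difference was not tested.

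**Figure D3:**
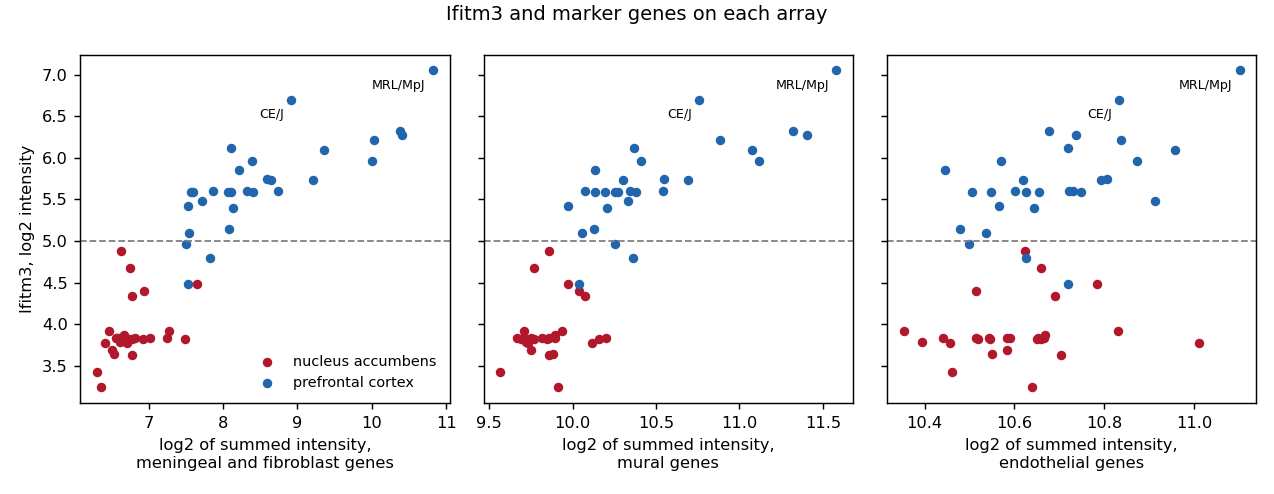
Ifitm3 (vertical axis, log2 intensity) against the log2 summed intensity of meningeal and fibroblast, mural and endothelial genes on each accumbens array (red) and each cortex array (blue), with a dashed line at log2 5. Cortex arrays with larger sums have higher Ifitm3, and MRL/MpJ at 7.05 lies at the upper right of each panel.

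Markers of immune cells did not follow the same course. The 11 measured microglial genes, of which Trem2 and Itgam were never above log2 5, summed to 1148 to 2028 in accumbens and 852 to 1403 in cortex, and the sum was lower in accumbens in 0 of 27 strains. Ifitm3 had an r of 0.42 with this sum in accumbens (n = 27) and 0.22 in cortex (n = 29). All 8 measured blood and leukocyte genes, among them Ptprc, Cd3e and S100a8, lay below log2 5 on every array. The summed choroid plexus genes of the SM/J cortex array stood at 1510, with the next cortex array at 66.3, and Ifitm3 in that array was 6.21, rank 5 of 29.

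The other question was which genes separate the strains in both regions alike, tested with a moderated F test over the same 54 arrays. Of all 16056 probe sets, 20.1% passed at an adjusted p under 0.05. None of the 4 tested probe sets did: the limma adjusted p was 0.0538 for Ifit3, 0.0726 and 0.258 for the _a_at and _s_at probe sets of Ifi27, and 0.312 for Ifitm3. The unadjusted p of Ifit3 was 0.0111 and that of Ifi27 on the _a_at probe set 0.0172. The SD of strain means was 0.37 for Ifit3, 0.28 and 0.14 for Ifi27 and 0.32 for Ifitm3, against a median of 0.19 over all probe sets tested. The residual SD, the spread of strain by region, was 0.35, 0.27, 0.16 and 0.40 in the same order, against a median of 0.21. With no filter 8.5% of all probe sets passed the strain test, and 0 of the 9 did. Except on the _s_at probe set of Ifi27, both spreads were thus above the medians over all probe sets.

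Ifit3 came closest to a shared strain difference. Its strain means ran from 3.90 in RIIIS/J, 3.94 in A/J and 4.09 in MA/MyJ to 5.19 in I/LnJ, 5.21 in CE/J and 5.33 in P/J. The strains' values in the 2 regions had an r of 0.38 (Spearman rho 0.35, n = 27). I/LnJ, CE/J and P/J were the only strains above log2 5 in both regions. In 12 of 27 strains, RIIIS/J, A/J and MA/MyJ among them, both values lay at or below log2 5, and only 3 accumbens values were above it. The strain order and the strain test of Ifit3 thus rest in large part on dim values. The test passed after quantile normalization (adjusted p = 0.0409) and after centring (adjusted p = 0.0401), and it also passed when any 1 of 6 strains was left out, at an adjusted p as low as 0.0198 without C57BR/cdJ. The others were SJL/J (0.0356), BTBR T+ tf/J (0.038), WSB/EiJ (0.0429), C3H/HeJ (0.0495) and BALB/cByJ (0.04998).

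In C57BR/cdJ and SJL/J the regions of Ifit3 were far apart. C57BR/cdJ was the highest cortex array at 5.68 and among the lowest accumbens arrays at 3.67. No gap between neighbouring strains in the order of means exceeded the residual SD, in Ifit3 or in the other 3 probe sets, so neighbours in each order did not differ beyond their spread.

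Ifi27 on the _a_at probe set had its lowest strain means in SJL/J at 4.81, SM/J at 4.91 and SWR/J at 5.03, and its highest in I/LnJ at 5.76, C57BL/6J at 5.91 and BALB/cByJ at 5.94. The r between regions was 0.36 (rho 0.37, n = 27). The strain test passed without the 5 strains whose arrays stood apart (adjusted p = 0.0133), without NON/LtJ (0.0332) and without BUB/BnJ (0.0492). On the _s_at probe set the means ran from 6.31 in C3H/HeJ to 6.85 in CE/J, with BALB/cByJ at 6.81 and C57BL/6J at 6.77 next below it, and the r between regions was 0.24. BALB/cByJ and C57BL/6J were thus among the 3 highest strains on either probe set, and SJL/J among the 3 lowest.

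Ifitm3 strain means ran from 3.95 in I/LnJ and 4.22 in CBA/J to 5.26 in CE/J and 5.50 in BUB/BnJ, and the r between regions was 0.15 (rho 0.20, n = 27). BUB/BnJ was highest in accumbens at 4.89 and rank 6 of 29 in cortex at 6.12. Its accumbens array ranked 2 of 27 for the sum of cortical excitatory neuron genes. C57BL/6J, second for Ifitm3 in accumbens at 4.67, ranked 26 for that sum. Across accumbens arrays the r of Ifitm3 with that sum was 0.33 (n = 27), and the part of tissue makeup was not tested. CE/J, at 6.70 in cortex, was at 3.82 in accumbens, close to the median of that region. All accumbens values of Ifitm3 were dim, so its strain order there rests on values below log2 5.

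**Figure D4:**
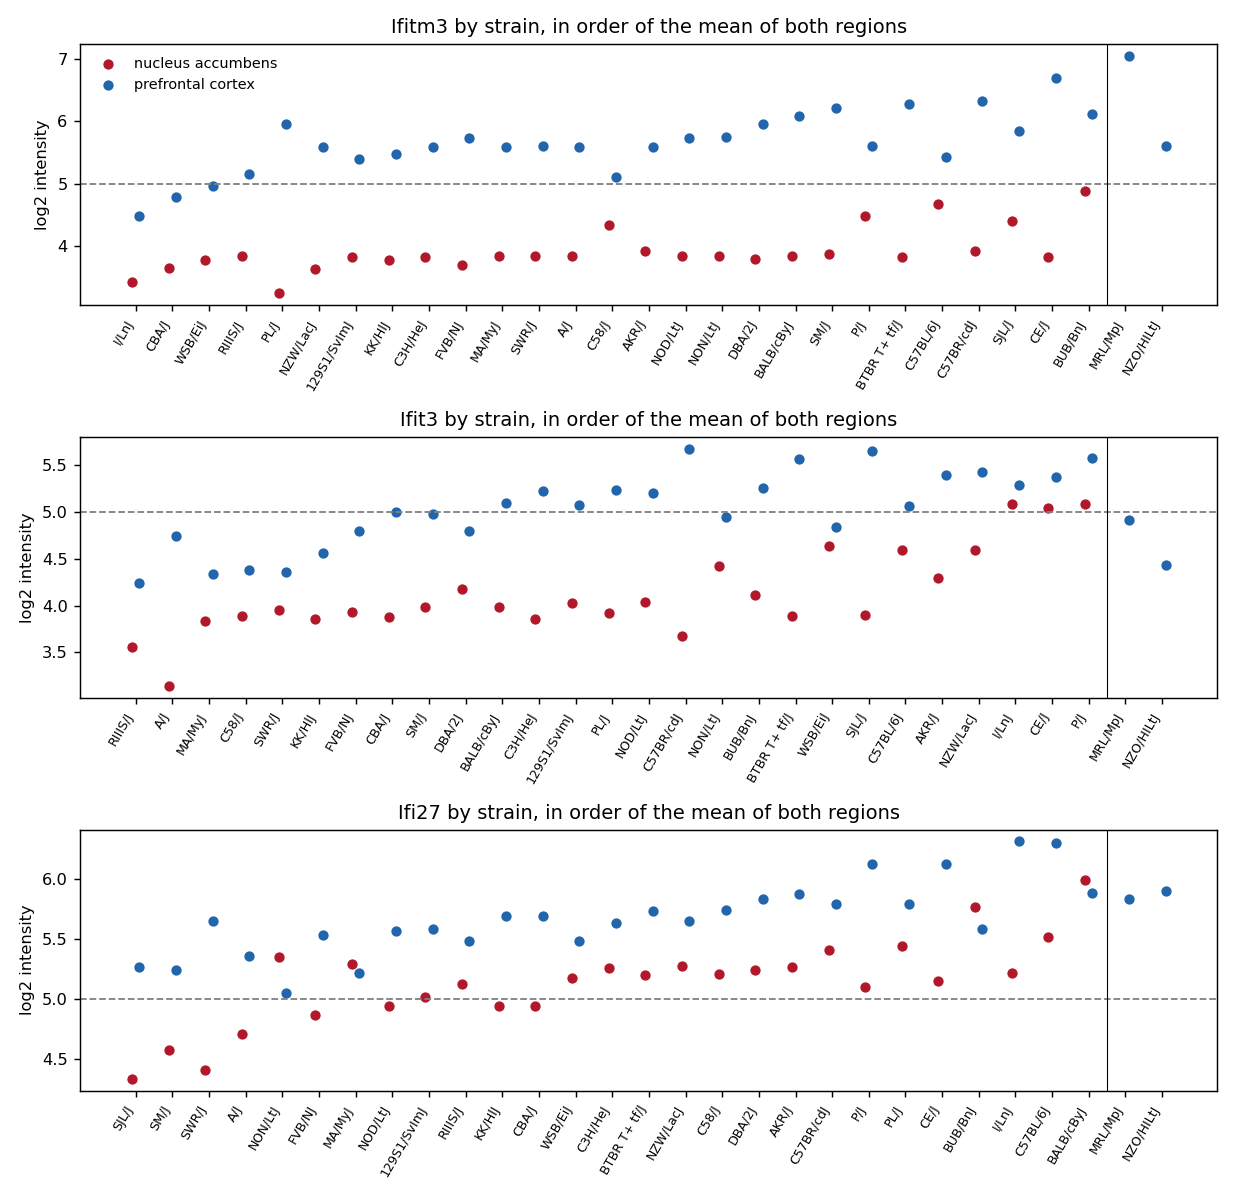
Log2 intensity (vertical axis) of Ifitm3, Ifit3 and Ifi27 (_a_at probe set) in accumbens (red) and cortex (blue) of each strain, in order of the mean of both regions, with MRL/MpJ and NZO/HILtJ, profiled in cortex only, right of the line and a dashed line at log2 5. The regions of Ifit3 draw close in I/LnJ, CE/J and P/J and are far apart in C57BR/cdJ and SJL/J.

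The r values between the 3 genes were low, at most 0.31. Across arrays Ifitm3 and Ifit3 had an r of 0.09 in accumbens (n = 27) and 0.31 in cortex (n = 29), Ifit3 and Ifi27 (_a_at) 0.22 and 0.27, and Ifitm3 and Ifi27 0.11 and -0.04. The MRL/MpJ cortex array, highest for Ifitm3, ranked 19 of 29 for Ifit3 at 4.92 and 9 of 29 for Ifi27 on the _a_at probe set at 5.83, and it was the lowest cortex array for Irf7 and Ifit1. SJL/J was highest in cortex for Usp18 and for the shared Isg15 probe set and second for Irf7, Ifit1 and Ifit3, all dim except Ifit3 at 5.65. The same array ranked 5 of 29 for Oasl2, 10 for Ifitm3, 14 for Bst2, and 26 and 24 for Ifi27 (_a_at and _s_at). The order of the dim values is not read as a difference in RNA. SJL/J was lowest in accumbens for both Ifi27 probe sets.

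The genes whose strain pattern was most like that of a member were found among 14179 probe sets of named genes by the lower of the within-region r values across 27 strains. For Ifitm3 they were Sec24b (0.50), Daam2 (0.46) and Nrgn (0.44), for Ifit3 Tmem196 (0.57), Fcho2 (0.52) and Unc80 (0.48), and for Ifi27 on the _s_at probe set Arhgef11 (0.50), Ociad1 (0.48) and Vac14 (0.47). A mean of standardised values was also taken over Ifitm3, Ifit3 and Ifi27 (_s_at), without the members that were dim throughout. In accumbens Ifitm3 was dim on all arrays and Ifit3 on all but 3. For that mean, B2m, the light chain of class I histocompatibility molecules, stood first at 0.68 in either region. It was followed by Stmn1 (0.48), Man2b1, Rufy3, Atp1b3, Tmem176b, Ndufb11, Laptm4b, Unc80 and Ly6e (0.42). These are the highest of all values searched, and the arrays share tissue makeup and normalization.

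**Figure D5:**
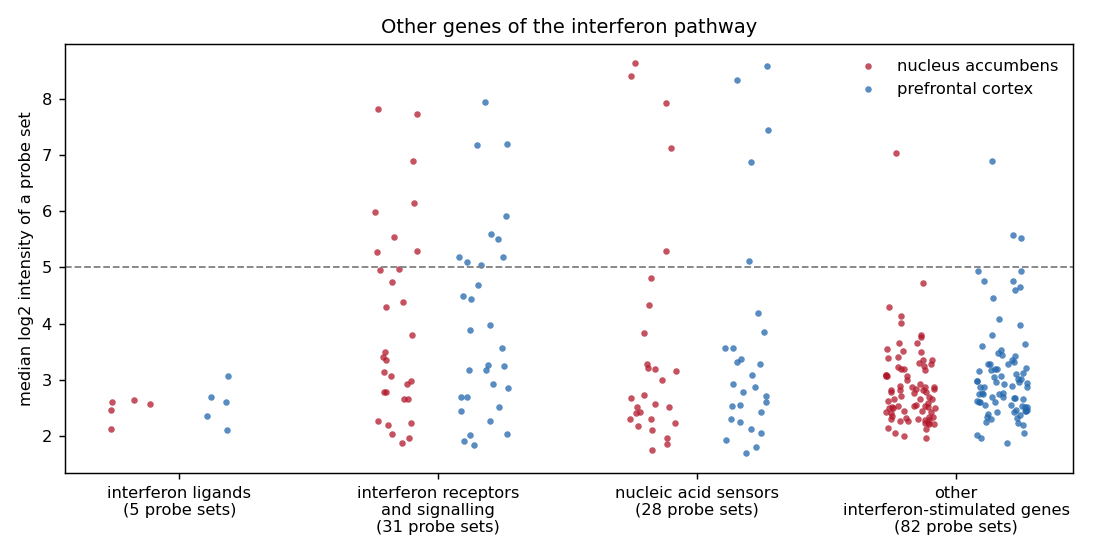
Median log2 intensity (vertical axis) of each probe set of 4 interferon gene lists over 27 accumbens arrays (red) and 29 cortex arrays (blue), with a dashed line at log2 5. All 5 interferon probe sets and 71 of 82 probe sets of other interferon-stimulated genes never rose above the line on any array. Over the whole array 58.2% of probe sets did not.

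The rest of the pathway was also mostly dim, as were 58.2% of probe sets over the whole array. The interferon genes Ifnb1, Ifna1, Ifna2, Ifna4 and Ifng were below log2 5 on every array, Ifnb1 between 2.42 and 2.75 in accumbens and between 2.29 and 3.13 in cortex. Of ISGF3, Irf9 lay between 3.76 and 4.91 in accumbens (median 4.39) and had a median of 4.50 and a highest value of 4.93 in cortex. The 2 Stat2 probe sets were below log2 5 on every array as well, at medians of 3.06 and 3.41 in accumbens and 2.93 and 3.17 in cortex.

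Receptor and signalling genes were partly measurable. Of 31 probe sets of 15 genes, 18 were dim throughout (58.1%), the usual share, since 58.2% of all probe sets were. The 11 tested were of 7 genes: 5 were higher and 6 lower in accumbens, where 51.8% of all probe sets were higher and 31.5% lower. Their median difference was -0.26, against 0.14 over all probe sets. Jak2, a kinase of the interferon gamma receptor, averaged 6.12 ± 0.36 in accumbens and 5.04 ± 0.47 in cortex on the probe set of largest difference (difference 1.08, SE 0.07, limma adjusted p = 1.65e-14), higher in 27 of 27 strains, and its other tested probe set was higher by 0.56. Irf1, a transcription factor induced by interferon gamma, averaged 4.32 ± 0.16 in accumbens and 5.21 ± 0.20 in cortex (difference -0.89, SE 0.05, limma adjusted p = 8.2e-17), at least 1.16-fold lower against log2 5. It was above log2 5 on 0 of 27 accumbens arrays and 26 of 29 cortex arrays, so it passed the filter through cortex and had to differ.

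For the receptor subunit gene Ifnar1 the tested probe sets disagreed, with differences of 0.38 and -0.31, the probe set at -0.31 having an accumbens mean of 4.91, just below log2 5. For the kinase gene Jak1 the 2 bright probe sets were lower by 0.32 and 0.26 on the log2 scale, and the other tested one had dim means in both regions. Irf3, a transcription factor that switches on interferon genes, was lower by 0.32 on the log2 scale. That value is of its only tested probe set, of the _x_at type, and its other probe sets were dim throughout. By strain, Jak2 on its probe set of largest difference ran from 4.71 in BALB/cByJ, a dim mean, to 6.28 in RIIIS/J (limma adjusted p = 0.0027). The other tested Jak2 probe set did not pass the strain test (limma adjusted p = 0.198). Ifnar2 was lowest in WSB/EiJ at 4.78 and highest in BALB/cByJ at 5.89 (limma adjusted p = 0.0245). Irf3 on its _x_at probe set ran from 5.30 in NZW/LacJ to 6.25 in SWR/J (limma adjusted p = 0.0426). These 3 of the 11 probe sets passed the strain test, where 20.1% of all probe sets did, and 1 did after quantile normalization.

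Of the sensors of foreign nucleic acid, 21 of 28 probe sets were dim throughout and 5, of 3 genes, were tested, with 3 higher, 0 lower and 2 not past the threshold, where 83.3% of all probe sets were called. Tbk1, the kinase that activates IRF3, was higher in accumbens by 0.55 on its _at probe set (SE 0.05, limma adjusted p = 2.37e-12), and by 0.06 on its _s_at probe set, which did not pass. By strain Tbk1 on the _at probe set ran from 7.24 in CBA/J to 8.25 in MA/MyJ (limma adjusted p = 0.00273). Mavs, the mitochondrial adaptor of RNA sensing, was higher by 0.21, and Adar, an RNA-editing enzyme, by 0.09 on 1 of its 2 tested probe sets. After quantile normalization 1 sensor probe set was higher, and after centring 1.

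Of 82 probe sets of 52 other interferon-stimulated genes, 71 (86.6%, against 58.2% of all probe sets) were dim throughout, and 4 were tested. Of those 4, Herc6, the ligase that attaches ISG15 in the mouse, averaged 2.67 ± 0.30 in accumbens and 5.45 ± 0.55 in cortex (difference -2.78, SE 0.10, limma adjusted p = 8.58e-21), at least 1.36-fold lower. These values are of its only tested probe set, and its other probe sets were dim throughout. Ifit2, from the same gene family as Ifit1 and Ifit3, averaged 3.50 ± 0.49 in accumbens and 5.04 ± 0.49 in cortex (difference -1.55, SE 0.11), and Ifitm10 averaged 3.76 ± 0.62 in accumbens and 5.54 ± 0.15 in cortex (difference -1.79, SE 0.12). Herc6 and Ifit2 were above log2 5 on 0 of 27 accumbens arrays and Ifitm10 on 1, that of BALB/cByJ, so these 3 passed the filter through cortex and had to differ. Cmpk2, a mitochondrial nucleotide kinase, was the exception, at 7.05 ± 0.20 in accumbens and 6.90 ± 0.32 in cortex (difference 0.16, limma adjusted p = 0.025), and its call was lost after quantile normalization, after centring and without the 5 strains whose arrays stood apart. None of the 4 passed limma's strain test, and 0 had an unadjusted p under 0.05.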

How the data were processed

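The authors deposited linear intensity values per probe set, from 1-colour arrays of 27 accumbens and 29 cortex pools. Per the submitters' processing notes they come from GCRMA (version not stated), which corrects background, normalizes quantiles and summarises probes. Scanner files were not used here. The median intensity was 9.66 to 10.14 on accumbens arrays and 9.94 to 10.43 on cortex arrays. Precision is limited by how many arrays there are.

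Of 45015 probe sets, 64 controls were dropped. By the platform annotation, 34880 had 1 symbol, 923 several and 9148 none, and none was named from several. Symbols found by gene identifier numbered 34677, of which 0 changed. Values were turned to log2 with no pseudocount, and probe sets were not merged into genes.

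limma 3.58.1 in R 4.3.3 was fitted with region and strain on the 54 arrays of 27 strains, with Benjamini-Hochberg adjustment at 0.05. Strain was a block because, per the design text, the same brains gave both regions. P-values thus set each difference against the spread of strain by region, which is what remains after region and strain are fitted. The fit was tested on simulated data. Descriptions used Python 3.11.15, numpy 2.4.6, pandas 2.3.3 and matplotlib 3.10.9. A marker sum adds the linear intensity of each gene's brightest probe set.

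The members and the lists were chosen with earlier results of these data known. Named were all member probe sets, up to 5 genes per list with the largest region difference and up to 5 with the largest strain spread among those called, Stat2 and Irf9, and the genes most like the members. Alternatives were no filter, a filter at log2 7, a pseudocount of 16, quantile normalization, centring, 1 probe set per gene, leaving out probe sets of the _s_at and _x_at types, a threshold of 0.01, fits with strains left out, and no replicate block.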

Additional observations from a re-analysis of the deposited data

How the results depend on the processing

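The region differences ran, over the alternatives that gave them a value, from -1.88 to -1.10 for Ifitm3, -1.05 to -0.55 for Ifit3, -0.68 to -0.38 for Ifi27 on the _a_at probe set and -0.43 to -0.26 on the _s_at probe set. All stayed past the threshold, which for Ifitm3, and mostly for Ifit3, the filter through cortex had fixed. The smallest came with a pseudocount of 16. A filter at log2 7 left none of them in the test. Without the replicate block 12821 probe sets differed by region, against 13380 with it, and no call of these 4 changed.

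Counts over all probe sets moved with the filter, which changes how many are tested. With no filter 35682 differed by region (17003 higher, 18679 lower), and with a filter at log2 7 the count was 7054 (4293 higher, 2761 lower). With the brightest probe set per gene 5451 were higher. By strain 3225 passed, against 1634 with the filter at log2 7 and 1873 at a threshold of 0.01.

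The strain test of Ifit3 (adjusted p = 0.0538) passed after quantile normalization at 0.04091 and after centring at 0.04013, and leaving out 1 strain at a time gave 0.0198 to 0.112. That of Ifi27 on the _a_at probe set (0.0726) gave 0.01332 without the 5 strains whose arrays stood apart and 0.0332 to 0.144 leaving out 1 strain at a time. The cause of these changes was not tested. Of 452 list counts under alternatives, 39 moved by more than 1.5 times.

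The main limits are the 1 array per strain and region, which leaves the strain by region spread as the error, and levels near or below log2 5 for most of these genes.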

Other observations

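Xaf1, an interferon-induced gene linked to cell death, was named after its values were seen. Of its 2 probe sets, 1 was above log2 5 on too few arrays to be tested with the filter. In accumbens the median of that probe set was 3.29, and it was above log2 5 in BTBR T+ tf/J at 6.50 and 129S1/SvImJ at 5.17, with DBA/2J next at 4.31, CE/J at 4.21 and P/J at 4.14. In cortex its median was 3.31, and it was above log2 5 in 129S1/SvImJ at 6.52, BTBR T+ tf/J at 6.38, CE/J at 6.23, C57BR/cdJ at 5.90, P/J at 5.85 and DBA/2J at 5.51, with every other strain below log2 5. The 5 highest accumbens strains were thus all among the 6 highest cortex strains. The probe set was chosen for this pattern, so it was given no test. The other Xaf1 probe set was dim throughout.

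Ifitm1 and Ifitm2, relatives of Ifitm3 also named after their values were seen, had MRL/MpJ as their highest cortex array too. Ifitm1 had a median of 2.45 in accumbens, with 0 of 27 arrays above log2 5, and of 4.66 in cortex, with 11 of 29 above. Its highest cortex arrays were MRL/MpJ at 6.91, C57BR/cdJ at 6.08 and BTBR T+ tf/J at 5.94. Ifitm2 had a median of 3.25 in accumbens, with NZW/LacJ highest at 5.43, and of 4.94 in cortex, with MRL/MpJ at 6.44, NZW/LacJ at 6.21 and BTBR T+ tf/J at 6.01 highest. Neither passed the filter that the paired test used.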
